A study of Mus musculus with 14 samples.

Results

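The motor genes described here encode the kinesins, the kinesin light chains and the subunits and light chains of cytoplasmic dynein. They were chosen by symbol alone, as genes whose symbols begin with Kif followed by a digit or c, Klc1 to Klc4, Dync1 or Dync2, and Dynll, Dynlr or Dynlt, with 4 pseudogenes left out. The rule gave 61 genes of 39179 in the time course table, and all 61 were among the 35886 genes summed from the sorted cell files. By role, 13 were mitotic kinesins, 15 were transport kinesins, 4 were kinesin light chains, 5 were subunits of dynein-1, 2 were subunits of dynein-2, 9 were dynein light chains and 13 were other kinesins. Transport kinesins, kinesin light chains and dynein-1 subunits are together called transport motors below and number 24. Dynein-2 intermediate chains and the mitotic kinesin Cenpe carry other symbols and lie outside the rule.

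All libraries came from Ocy454, a mouse osteocyte-like line that carries a thermosensitive large T antigen and is therefore immortal only at the lower temperature. Cells were expanded at 33 °C to confluence and moved to 37 °C to differentiate, with no genetic or drug treatment in any group. RNA was taken at day 1, day 7, day 10 and day 14 of differentiation with 2 libraries each, and day 1 cells had thus already been shifted. In a separate experiment, cells at day 17 were sorted alive on surface CD61, the integrin β3 protein encoded by Itgb3, and the brightest 10% (CD61high) and dimmest 10% (CD61low) gave 3 libraries each. The sort takes both tails of a culture and leaves out the cells between them.

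Kinesins and dynein turn ATP hydrolysis into steps along microtubules. Most kinesins walk toward the plus end and carry vesicles, organelles and mRNA outward, while cytoplasmic dynein-1 carries cargo back to the cell center and dynein-2 returns trains of intraflagellar transport to the base of the cilium. A distinct group of kinesins builds the spindle, moves chromosomes and closes the cell at cytokinesis, and its transcripts peak in dividing cells. Osteocytes are terminally differentiated bone cells that extend long dendrites through the bone matrix.

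Reads on genes ran from 27518605 to 34311238 per library in the time course, and estimated counts ran from 18815602 to 19220064 per sorted library. Itgb3 stood at 5.31 to 6.10 CPM, the reads of a gene scaled to a common library total, in CD61low and at 100.1 to 130.1 CPM in CD61high, in the direction of the sort. Of 10 osteocyte markers, 8 were tested, of which 6 rose and 2 fell at day 14 (32.6% and 36.0% of all genes) and 7 rose and 1 fell in CD61high (19.4% and 16.0%). Phex rose by a Log2FC of 5.6 at day 14 and Dmp1 by 4.29 in CD61high, Col1a1 fell at day 14 (Log2FC −0.47), and Pdpn fell in both (Log2FC −0.53 and −0.48). Adipocyte and endothelial markers stayed below 1 CPM in every library, and so did 5 of 7 macrophage markers. The summed macrophage list was 17.1 to 22.7 CPM in CD61low and 12.5 to 13.2 CPM in CD61high, where Cd68 fell (Log2FC −0.81). The summed chondrocyte list was 37.4 to 47.1 CPM in CD61low and 96.4 to 113 CPM in CD61high, with Sox9 (Log2FC 1.37) and Col2a1 (Log2FC 1.83) higher. In the time course the chondrocyte sum was 79.8 to 81.2 CPM on day 1, 75.8 to 77.8 CPM on day 7, 66.6 to 67.7 CPM on day 10 and 102 to 121 CPM on day 14, while Sox9 was higher (Log2FC 0.96) and Acan lower (Log2FC −1.09) at day 10. The macrophage sum was 7.37 to 7.97, 4.77 to 5.14, 10.4 to 11.9 and 6.32 to 7.38 CPM on these days. Cd68 was higher at day 10 (Log2FC 1.08) and day 14 (0.71), while Cd14 was lower at day 7 (−0.58) and day 14 (−0.68). The part of these cell type differences in the motor gene results was not tested. Longer genes read relatively high in CD61low replicate 3 (0.118 log2 units per doubling of length) and CD61high replicate 1 (0.063) and relatively low in CD61high replicate 2 (−0.101), against −0.038 to 0.024 elsewhere.

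The summed level of the mitotic kinesins was lowest at day 10 and back near its start by day 14. It was 1036 and 1041 CPM on day 1, 938.5 and 927 CPM on day 7, 840.2 and 822 CPM on day 10, and 1033 and 1014 CPM on day 14. Of the 13, 11 had their lowest mean on day 10, Kif20b on day 7 and Kifc5b on day 1. In RNA from a whole culture, fewer dividing cells and less of a transcript per cell cannot be told apart. A gene was called when its adjusted p across all genes fell below 0.01. By limma on log2(CPM + 1), 6 of 13 fell and 2 rose at day 7, where 32.0% of all 12725 genes tested were called lower and 24.5% higher. At day 10, 9 fell and none rose, where the background was 30.3% lower and 33.1% higher and Kifc5b alone had a positive Log2FC (0.04 ± 0.09 SE, adjusted p = 0.65). None rose by edgeR on the recovered reads either. Against day 10, 10 of 13 rose by day 14 and none fell, where 22.9% of all genes were called higher and 30.0% lower. All 13 had a positive Log2FC of 0.11 to 0.53, where 5746 of 12725 genes had a positive one. Against day 1, day 14 had 4 higher and 2 lower, where 32.6% of all genes were higher and 36.0% lower. The days share the day 1 or day 10 libraries, so these comparisons are not independent of each other.

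Among the mitotic kinesins chosen by symbol, Kif20a and Kif23, kinesins of the central spindle and cytokinesis, had the deepest dips at day 10. Kif20a measured 123 and 127 CPM on day 1, 92.7 and 91.7 CPM on day 7, 71.4 and 69.7 CPM on day 10, and 90.6 and 90.2 CPM on day 14. Its libraries were highest on day 1 and lowest on day 10 without overlap between days, day 14 lying just under day 7. Log2FC was −0.82 ± 0.04 (SE, adjusted p = 1.7e-15, limma) at day 10, and Kif20a was still lower than on day 1 at day 14 (Log2FC −0.47 ± 0.04, adjusted p = 1.5e-10). Kif23 measured 105.0 ± 1.3 CPM on day 1 (mean ± SD, n = 2), 92.4 and 91.1 CPM on day 7, 73.3 and 64.4 CPM on day 10, and 100.4 and 99.6 CPM on day 14. Both day 10 libraries of Kif23 lay below all other libraries of the time course (Log2FC −0.60 ± 0.05, adjusted p = 2.7e-11), and it rose again from day 10 to day 14 (Log2FC 0.53 ± 0.05, adjusted p = 6.2e-10).

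Kif11, the bipolar kinesin-5 that pushes spindle poles apart, ended above its starting level. It measured 179.7 and 183 CPM on day 1, 170.2 and 168 CPM on day 7, 166 and 160.3 CPM on day 10, and 212 and 202 CPM on day 14. Day 14 libraries were above every earlier library, with a Log2FC of 0.19 ± 0.04 (SE, adjusted p = 7.5e-05, limma) against day 1 and 0.34 ± 0.04 (adjusted p = 2.4e-08) against day 10. Kif14, a cytokinesis kinesin, went from 66.1 and 62.9 CPM on day 1 to 51.0 and 50.2 CPM on day 10 and to 71.4 and 62.3 CPM on day 14. Its fall to day 10 (Log2FC −0.34 ± 0.06, adjusted p = 5.4e-06) and its rise from there (0.39 ± 0.06, adjusted p = 1.2e-06) were called, and days 1 and 14 overlapped. Counts moved when single libraries were left out, with mitotic kinesins higher at day 14 against day 1 going from 4 to 1 without day 14 replicate 2 and to 2 without either day 1 library, and those lower at day 7 going from 6 to 3 without day 1 replicate 1.

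**Figure D1:**
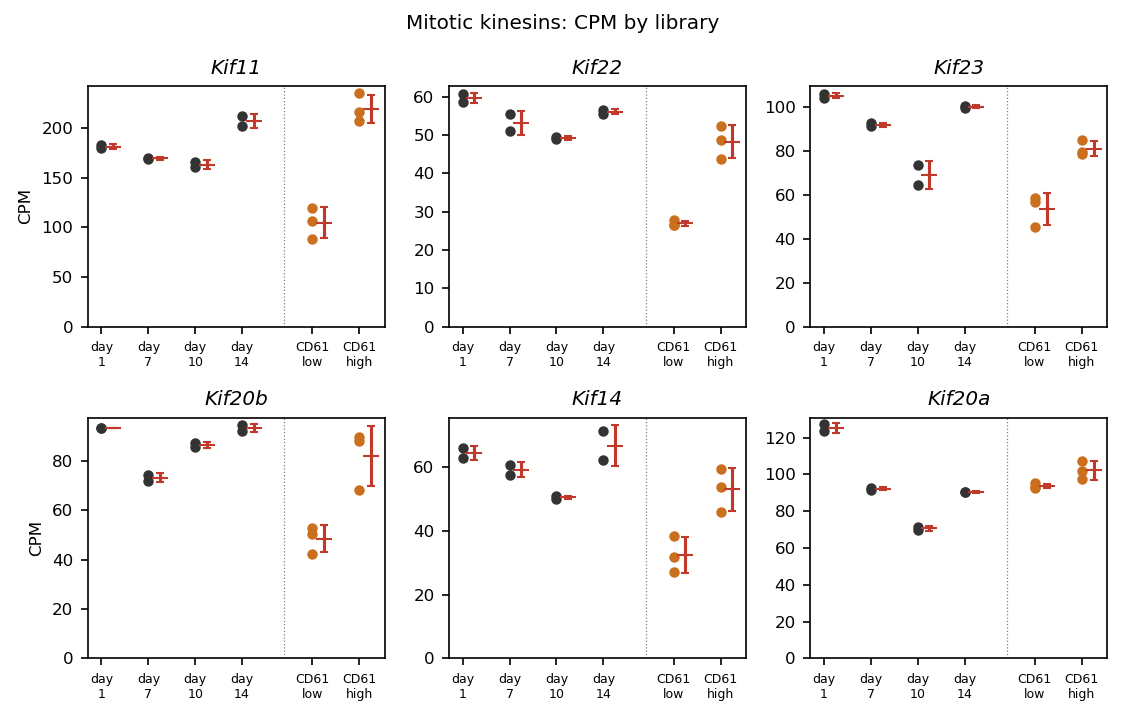
CPM (vertical axes, starting at 0) of 6 mitotic kinesins by group. Dots are libraries, red bars the mean ± SD (n = 2 per day, n = 3 per sorted group), and the dotted line separates the time course from the sort, which were normalised separately. Day 10 is the low point for Kif23 and Kif20a, and CD61high libraries of Kif11 lie between 207 and 235 CPM, above all CD61low libraries.

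In the sort, every mitotic kinesin had a positive Log2FC, as did 6072 of the 12077 genes tested. Among the mitotic kinesins, 9 of 13 were called higher in CD61high, none lower. Of all 12077 genes tested in the sort by edgeR's quasi-likelihood test, 19.4% were called higher and 16.0% lower. Kif11 was the only motor gene past 2-fold upward, where 4.84% of all genes were. Its level was 88.0, 106.6 and 119.6 CPM in CD61low and 215.5, 207 and 235 CPM in CD61high. The groups were well apart, with Log2FC 1.06 ± 0.11 (SE, adjusted p = 2.3e-05).

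Kif22, a chromokinesin that pushes chromosome arms to the spindle equator, measured 26.5, 26.6 and 27.8 CPM in CD61low and 43.8, 48.7 and 52.4 CPM in CD61high (Log2FC 0.84 ± 0.09, adjusted p = 2.7e-05, edgeR). Kif20b, a kinesin of the midbody, measured 42.3, 50.3 and 52.7 CPM in CD61low and 88.2, 68.2 and 89.7 CPM in CD61high (Log2FC 0.76 ± 0.12, adjusted p = 0.00044). Kif14 measured 27.0, 31.7 and 38.3 CPM in CD61low and 53.9, 46.1 and 59.4 CPM in CD61high (Log2FC 0.71 ± 0.13, adjusted p = 0.0013). In each of these 3 genes the lowest CD61high library exceeded the highest CD61low library. The same held for motor genes that were not called, such as Kif20a, Kif9 and Dynlt1b. In the time course Kif22 measured 58.7 and 60.6 CPM on day 1, 51.0 and 55.4 CPM on day 7, 49.6 and 48.9 CPM on day 10, and 55.6 and 56.6 CPM on day 14. Kif20b dipped earlier, with 93.3 and 93.5 CPM on day 1, 72.0 and 74.5 CPM on day 7, 85.6 and 87.3 CPM on day 10, and 94.5 and 92.3 CPM on day 14 (Log2FC −0.35 ± 0.04 at day 7, adjusted p = 8e-08, limma).

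Kif23 measured 45.3, 56.7 and 58.7 CPM in CD61low and 78.5, 79.2 and 84.8 CPM in CD61high (Log2FC 0.59 ± 0.10, adjusted p = 0.00069, edgeR). Kif18b, a kinesin-8 of astral microtubules, measured 65.0, 73.2 and 78.0 CPM in CD61low and 103.8, 112 and 109.6 CPM in CD61high (Log2FC 0.59 ± 0.08, adjusted p = 0.0002). Kifc5b, a close copy of the spindle pole kinesin Kifc1, measured 23.3, 22.6 and 24.0 CPM in CD61low and 33.4, 39.5 and 37.6 CPM in CD61high (Log2FC 0.66 ± 0.09, adjusted p = 0.00018). Groups did not overlap for any of them, and they did not for the uncalled Kif20a either. In the time course Kif18b ranged from 57.8 CPM on day 10 to 71.7 CPM on day 14 and Kifc5b from 12.7 CPM on day 1 to 17.3 CPM on day 14. Kifc1 (Log2FC 0.52) and Kif4 (Log2FC 0.32, adjusted p = 0.0097) were the remaining calls, and that of Kif4 was lost without any one library other than CD61high replicate 2 (adjusted p = 0.017 to 0.059). The Kif4 call was also lost with the replicate number as a block. Kifc1 and Kifc5b share 51.5% and 44.7% of their 31-base words with other transcripts in GENCODE M39, so how reads were split between these copies is uncertain. Kif20a, which dipped most in the time course, differed least in the sort, at 92.8, 93.3 and 95.1 CPM in CD61low and 97.2, 101.7 and 107.5 CPM in CD61high (Log2FC 0.12 ± 0.07, adjusted p = 0.16).

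The size of this difference rested on how libraries were scaled. Normalisation factors were 1.10 to 1.13 in CD61low and 0.895 to 0.909 in CD61high, and scaling by library size alone moved the median Log2FC of all genes from 0.00 to −0.30. Under that scaling the mitotic median went from 0.59 to 0.29 and 4 mitotic kinesins were called higher, none lower, where 9.27% of all genes were called higher and 39.9% lower. The calls were Kif11, Kif22, Kif20b and Kifc5b, and Kif14, Kif18b and Kif23 missed the threshold with Log2FC of 0.29 to 0.41. With the trend over gene length removed, 12 of 13 were called higher at the same median. The share of all genes called in that fit was not counted, so the rise from 9 has no background beside it.

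Promoter windows of the mitotic kinesins are shown because all 13 had a positive Log2FC both from day 10 to day 14 and in the sort. RefSeq windows of 300 bases on GRCm38.p6, from 250 before to 50 after the start site, were found for 47 of 61 motor genes and 12 of 13 mitotic kinesins. Letters of the cell cycle genes homology region (CHR, TTTGAA, or TTCAAA on the other strand), an element known from promoters of G2 and M phase genes, were found in 11 of 12 mitotic kinesins (91.7%). They were found in 1 of 17 transport motors (5.88%), in 2 of 11 other kinesins and in 20.2% of 27025 genes with a window. The first base lay within 30 bases of the start site in 9 of 12 mitotic kinesins, in 0 of 17 transport motors and in 3.66% of all genes. CCAAT (or ATTGG), the letters of the CCAAT box, occurred in 8 of 12 mitotic kinesins, in 5 of 17 transport motors and in 41.1% of all genes. GGGCGG (or CCGCCC), a GC box, occurred in 6 of 12 mitotic kinesins, in 14 of 17 transport motors and in 38.2% of all genes. These were among 7 strings searched, and the choice was made after the data were seen. The other 4 were TTTAAA (2 of 12, 14.9% of all genes), TTTGAAAC (1 of 12, 1.32%), TTTCGCGC (0 of 12, 0.374%) and TTTGGCGC (2 of 12, 0.585%). TTTGAAAC overlaps TTTGAA. A match of letters is a description of the window.

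The whole windows of Kif11 and Kif22, which differed most between CD61high and CD61low among the mitotic kinesins, follow with CHR and CCAAT letters in capitals. Kif11 lies on the plus strand at chr19:37376132-37376431 and Kif22 on the minus strand at chr7:127042371-127042670.
Kif11: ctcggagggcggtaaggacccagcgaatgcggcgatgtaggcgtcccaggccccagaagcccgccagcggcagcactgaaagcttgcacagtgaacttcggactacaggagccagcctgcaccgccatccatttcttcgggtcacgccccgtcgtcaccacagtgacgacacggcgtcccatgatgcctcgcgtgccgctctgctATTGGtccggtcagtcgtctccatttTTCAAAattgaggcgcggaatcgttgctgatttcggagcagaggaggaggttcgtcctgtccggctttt
Kif22: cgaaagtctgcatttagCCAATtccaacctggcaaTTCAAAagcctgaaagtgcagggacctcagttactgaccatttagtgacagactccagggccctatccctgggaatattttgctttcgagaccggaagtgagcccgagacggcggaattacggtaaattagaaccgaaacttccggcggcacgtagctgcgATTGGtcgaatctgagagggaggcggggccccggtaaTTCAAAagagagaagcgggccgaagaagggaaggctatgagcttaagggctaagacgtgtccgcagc

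In both windows an ATTGG lies upstream of a TTCAAA close to the start site. The stretch of 30 bases around the CHR letters nearest the start site is given for 6 more mitotic kinesins to show how alike or unlike their surroundings are, with only the CHR letters in capitals. They lie at chr19:34922353-34922382 (Kif20b, plus), chr9:61946780-61946809 (Kif23, minus), chr11:102925104-102925133 (Kif18b, minus), chrX:100626072-100626101 (Kif4, plus), chr17:33890615-33890644 (Kifc1, minus) and chr17:26917108-26917137 (Kifc5b, plus).
Kif20b: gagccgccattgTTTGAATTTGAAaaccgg
Kif23: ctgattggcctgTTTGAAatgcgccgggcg
Kif18b: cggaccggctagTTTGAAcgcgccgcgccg
Kif4: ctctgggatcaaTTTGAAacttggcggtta
Kifc1: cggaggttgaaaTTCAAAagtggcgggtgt
Kifc5b: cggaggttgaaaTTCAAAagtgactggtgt

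Kif20b carries the letters in tandem, and the copies Kifc1 and Kifc5b share the bases to the left of the element. Kif14 and Kif2c have the letters far upstream, at −228 and −103, and Kif18a has none in this window.

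**Figure D2:**
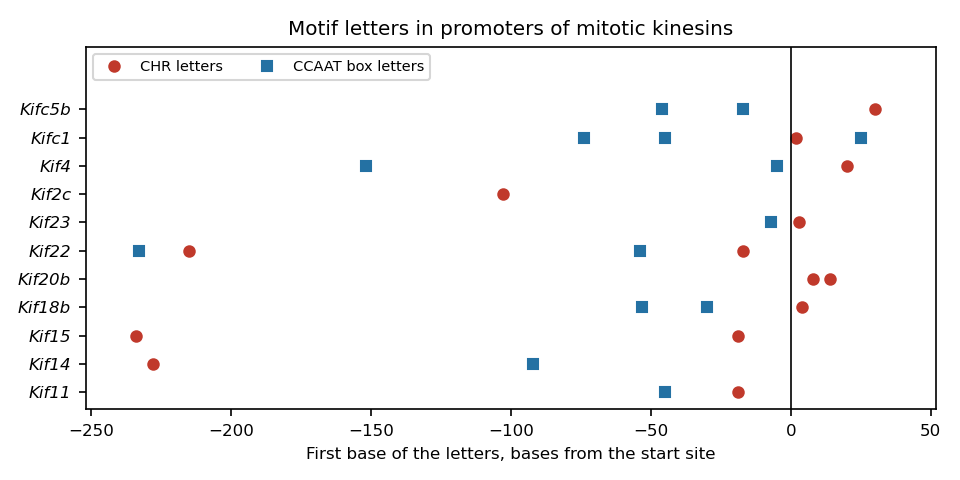
Position of CHR letters (red circles) and CCAAT box letters (blue squares) in the promoter windows of 11 mitotic kinesins, in bases from the RefSeq start site (vertical line). The nearest CHR letters begin within 30 bases of the start in 9 of them, and lie farther upstream in Kif14 and Kif2c.

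Genes that work with the mitotic kinesins were counted alongside them. Their list also holds Cenpe, a mitotic kinesin whose symbol lies outside the rule. Its mean was 144.7 CPM on day 1, 86.0 CPM on day 10 and 119.6 CPM on day 14. Of 18 spindle and cytokinesis partners, 14 fell and 1 rose at day 10 (30.3% and 33.1% of all genes), 16 rose and 2 fell from day 10 to day 14 (22.9% and 30.0%), and 15 rose and none fell in CD61high (19.4% and 16.0%), with list medians of −0.35, 0.42 and 0.52 against medians of 0.02, −0.04 and 0.00 over all genes tested. Against day 1, day 14 had 5 partners higher and 8 lower with a median of −0.04 (32.6% and 36.0% of all genes). Cit, the citron kinase of the midbody, rose most in the sort (Log2FC 0.92 ± 0.09, adjusted p = 2.1e-05, edgeR). Plk1, the polo-like kinase of mitosis, fell most at day 14 (Log2FC −1.02 ± 0.05, adjusted p = 1.6e-15, limma), and Anln, the contractile ring scaffold anillin, rose most (Log2FC 1.02 ± 0.04, adjusted p = 5e-19). A list of 18 cell cycle genes with more S phase members was divided in the sort, with 6 higher and 5 lower, where all genes gave 19.4% and 16.0%. Ccna2, cyclin A2, was its largest rise (Log2FC 0.76 ± 0.08, adjusted p = 3.4e-05, edgeR) and Ccne1, cyclin E1 of the G1 to S transition, its largest fall (Log2FC −1.18 ± 0.15, adjusted p = 9.2e-05). The list was divided in the time course too. At day 10, 5 were higher and 8 lower (33.1% and 30.3% of all genes), and from day 10 to day 14, 7 and 7 (22.9% and 30.0%).

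Transport motors moved singly and in both directions, with medians close to those of all genes. By limma, 4 of 23 tested rose and 9 fell at day 7, 8 rose and 9 fell at day 10, 6 rose and 8 fell at day 14, and 6 rose and 7 fell from day 10 to day 14. Over all genes, day 7 gave 24.5% higher and 32.0% lower, day 10 gave 33.1% and 30.3%, day 14 gave 32.6% and 36.0%, and the step from day 10 to day 14 gave 22.9% and 30.0%. In the sort, 4 of 22 tested were higher and 3 lower, where all genes gave 19.4% and 16.0%. Scaling by library size alone, which lowers the median of all genes by 0.30, gave 0 higher and 12 lower with a median of −0.36, where all genes gave 9.27% and 39.9%. The 6 higher at day 14 became 3 without day 1 replicate 1 and 4 without day 14 replicate 2, and the 4 at day 7 became 2 without day 1 replicate 1 or day 7 replicate 2. In the sort the 4 higher became 1 without CD61low replicate 2 and 2 without CD61high replicate 3, and the 3 lower became 1 without CD61low replicate 2 or 3 or CD61high replicate 2 or 3. With the replicate number as a block the 3 lower also became 1. Their median Log2FC was −0.10, −0.08, −0.06, 0.01 and −0.06 in these comparisons, and that of the mitotic kinesins was −0.15, −0.27, 0.05, 0.31 and 0.59. Transport kinesins alone had medians of −0.17, −0.04, −0.14, −0.14 and −0.26, where all genes had −0.05, 0.02, −0.03, −0.04 and 0.00. The spread among transport motors was wide, from −1.09 to 1.22 at day 14, where mitotic kinesins spanned only −0.47 to 0.26. Summed over 24 genes, transport motors gave 2452 and 2361 CPM on day 1 and between 2050 and 2133 CPM in the 6 later libraries. Dync1h1 alone went from a mean of 652 CPM on day 1 to 310.3 CPM on day 14. CD61low (1742 to 2005 CPM) and CD61high (1647 to 1963 CPM) overlapped.

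**Figure D3:**
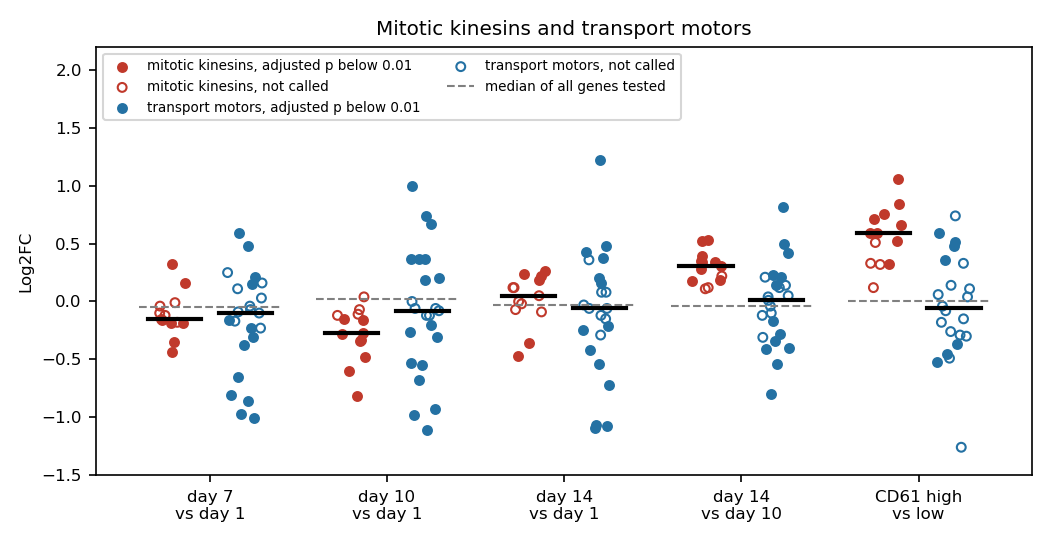
Log2FC (vertical axis) of each mitotic kinesin (red) and transport motor (blue) in the 5 comparisons. Filled points were called at an adjusted p below 0.01, black bars are medians and dashed lines the median of all genes tested. All mitotic kinesins lie above 0 in day 14 against day 10 and in CD61high against CD61low, where the transport motor medians are 0.01 and −0.06.

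Kif13b, a kinesin-3 vesicle carrier at chr14:64884714-65047073 (GRCm39, plus strand), had the largest called Log2FC of the transport motors at day 14 against day 1. Levels were 19.2 and 19.0 CPM on day 1, 28.5 and 30.2 CPM on day 7, 40.6 and 38.1 CPM on day 10, and 46.8 and 44.7 CPM on day 14. Each later day lay above the one before it, and day 14 differed from day 1 by a Log2FC of 1.22 ± 0.06 (SE, adjusted p = 1.3e-15, limma). In the sort it measured 45.1, 38.7 and 52.5 CPM in CD61low and 71.8, 58.4 and 74.8 CPM in CD61high (Log2FC 0.59 ± 0.12, adjusted p = 0.0028, edgeR). That call was lost without CD61low replicate 2 (adjusted p = 0.013) or CD61high replicate 3 (adjusted p = 0.016). Its relative Kif13a went the other way in the sort, from 36.2, 39.3 and 43.3 CPM in CD61low to 28.9, 25.3 and 28.4 CPM in CD61high (Log2FC −0.52 ± 0.10, adjusted p = 0.0012, edgeR), and was not called in the time course. Kif1a, a kinesin-3 of neurons, stayed at or below 1.03 CPM, where the pseudocount shrinks folds. Against day 1, its mean was 3.32 times as high on day 7 and 4.54 times on day 10, both called (Log2FC 0.48 and 0.67, adjusted p = 0.0095 and 0.00044, limma), and 2.71 times on day 14 without a call (adjusted p = 0.037). The day 7 call was lost without any one of its 4 libraries and the day 10 call without day 1 replicate 1 (adjusted p = 0.012).

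Kif1c, another kinesin-3, was the transport kinesin with the highest level per length in the sorted cells and also rose in both experiments. It went from 407 and 387 CPM on day 1 to 523 and 546 CPM on day 14 (Log2FC 0.43 ± 0.04, adjusted p = 8.7e-11, limma). In the sort it measured 313.5, 305.5 and 328 CPM in CD61low and 423, 370.3 and 424 CPM in CD61high (Log2FC 0.36 ± 0.08, adjusted p = 0.0026, edgeR). Neither comparison had overlapping libraries. The call of Kif1c in the sort was lost with library size alone (Log2FC 0.06, adjusted p = 0.48) and without CD61low replicate 1 or 2 or CD61high replicate 3 (adjusted p = 0.011 to 0.018). Kifc3, a minus-end kinesin, was higher in CD61high (Log2FC 0.48) and at day 10 (Log2FC 0.20) but lower at day 14 (Log2FC −0.21).

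Of the conventional kinesin heavy chains, Kif5b and Kif5a fell by day 14. Kif5b, the form found in most tissues, measured 231 and 231.4 CPM on day 1 and 192 and 197 CPM on day 14 (Log2FC −0.25 ± 0.04, adjusted p = 1.5e-06, limma). In the sort Kif5b measured 114, 133 and 140.4 CPM in CD61low and 106, 79.2 and 98.1 CPM in CD61high (Log2FC −0.45 ± 0.11, adjusted p = 0.0077, edgeR). Its call in the sort did not survive the loss of CD61low replicate 2 or 3 or CD61high replicate 2 or 3 (adjusted p = 0.027, 0.014, 0.019 and 0.018). That call was also lost with the replicate number as a block. Kif5a, a neuronal form, was near the limit of detection, at 1.62 and 1.29 CPM on day 1 and 0.233 and 0.109 CPM on day 14 (Log2FC −1.07 ± 0.16, adjusted p = 1.9e-06, limma), and the added pseudocount of 1 CPM shrinks its fold. In the sort Kif5a measured 1.05, 0.704 and 0.928 CPM in CD61low and 0.352, 0.461 and 0.294 CPM in CD61high, a Log2FC of −1.26 ± 0.37 that missed the threshold (adjusted p = 0.017, edgeR). Kif5c, also neuronal, dipped at day 10 (Log2FC −1.11) and rose again to day 14 (Log2FC 0.82).

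Heterotrimeric kinesin-2, which drives anterograde intraflagellar transport, had subunits with unlike courses. Kif3a measured 51.2 and 53.5 CPM on day 1, 47.1 and 46.6 CPM on day 7, 42.1 and 42.1 CPM on day 10, and 58.7 and 61.5 CPM on day 14. It was lowest at day 10 (Log2FC −0.31 ± 0.05, adjusted p = 7.1e-06, limma) and highest at day 14 (Log2FC 0.20 ± 0.05, adjusted p = 0.0012, against day 1), a call lost without day 1 replicate 1 or day 14 replicate 2 (adjusted p = 0.028 and 0.016). In the sort Kif3a measured 56.6, 55.8 and 54.1 CPM in CD61low and 50.4, 40.2 and 45.9 CPM in CD61high (Log2FC −0.29 ± 0.09, adjusted p = 0.022, edgeR). Kif3b, its main partner, measured 70.4 and 68.2 CPM on day 1, 56.2 and 55.3 CPM on day 7, 67.4 and 70.9 CPM on day 10, and 63.0 and 64.1 CPM on day 14. Its lowest libraries were those of day 7 (Log2FC −0.31 ± 0.05, adjusted p = 2.6e-06, limma), and Kif3b missed the threshold on day 14 (Log2FC −0.12 ± 0.05, adjusted p = 0.02) and in the sort (Log2FC −0.26 ± 0.09, adjusted p = 0.033, edgeR). Kif3c, the alternative partner, fell from 45.8 and 45.9 CPM to 28.6 and 26.4 CPM at day 14 (Log2FC −0.72 ± 0.07, adjusted p = 7.1e-10, limma). Of 19 genes of intraflagellar transport, 9 rose and 3 fell at day 14 (32.6% and 36.0% of all genes), and 3 rose and 3 fell in CD61high (19.4% and 16.0%). Ttc21b rose most at day 14 (Log2FC 0.95) and Ift20 fell most (Log2FC −0.74), and in the sort Ift140 (Log2FC 0.58) and Ift74 (Log2FC −0.76) were the extremes.

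Kinesin light chains, which couple conventional kinesin to cargo, were divided. Klc2 (chr19:5157769-5168803, minus strand) measured 48.7 and 46.4 CPM on day 1, 29.3 and 30.4 CPM on day 7, 22.7 and 24.3 CPM on day 10, and 22.1 and 21.6 CPM on day 14. Libraries of each later day lay below those of the day before it (Log2FC −1.09 ± 0.06 at day 14, adjusted p = 2.5e-14, limma). Klc1 measured 98.8 and 101.2 CPM on day 1 and 107.7 and 103.7 CPM on day 14 (Log2FC 0.08 ± 0.04, adjusted p = 0.087). Klc4 rose at day 14 (Log2FC 0.48) and in CD61high (Log2FC 0.51), Klc3 rose at day 14 (Log2FC 0.38), and Klc1 (66.4 to 74.9 CPM) and Klc2 (33.9 to 46.8 CPM) overlapped between the sorted groups. The call of Klc3 was lost without day 1 replicate 1 or day 14 replicate 1, and that of Klc4 in the sort without CD61low replicate 2 or CD61high replicate 2. Of 17 kinesin cargo adaptors, 15 were tested, of which 6 rose and 6 fell at day 14, against 32.6% and 36.0% of all genes, and 2 rose and 1 fell in CD61high, against 19.4% and 16.0%. Mapk8ip3, the JIP3 adaptor, rose most in both comparisons (Log2FC 0.82 and 0.55), and Clstn1, the calsyntenin that binds kinesin light chains, fell most in both (Log2FC −1.18 and −0.61).

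Dync1h1, the heavy chain that carries the motor domain of dynein-1, lies at chr12:110567821-110635470 (plus strand) and fell early. It measured 693 and 612 CPM on day 1, 358 and 359 CPM on day 7, 402 and 412 CPM on day 10, and 349 and 271 CPM on day 14. Every later library was below both day 1 libraries, by a Log2FC of −0.86 ± 0.07 at day 7 and −1.08 ± 0.07 at day 14 (adjusted p = 1.6e-11 and 9.4e-14, limma). Dync1h1 is among the longest transcripts, and with the trend over gene length removed its Log2FC at day 14 was −0.98 ± 0.05. In the sort it measured 542, 541 and 706 CPM in CD61low and 624, 456 and 502 CPM in CD61high, with overlapping groups (Log2FC −0.18 ± 0.13, adjusted p = 0.29, edgeR), and was called lower with library size alone (Log2FC −0.48, adjusted p = 0.0065). The high value in each group belonged to the library in which longer genes read relatively high.

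Of the other dynein-1 subunits, Dync1i1 fell along with the heavy chain and Dync1i2, Dync1li1 and Dync1li2 were not called lower at day 7 or day 14. Dync1i2, the intermediate chain that binds dynactin, measured 136 and 138 CPM on day 1, 137 and 142.5 CPM on day 7, 114.7 and 113 CPM on day 10, and 147 and 159 CPM on day 14. It fell at day 10 (Log2FC −0.26 ± 0.04, adjusted p = 3.7e-06, limma) and rose from there to day 14 (Log2FC 0.42 ± 0.04, adjusted p = 3.1e-09). In the sort Dync1i2 measured 97.2, 108 and 97.9 CPM in CD61low and 102.7, 102.8 and 105 CPM in CD61high (Log2FC 0.04 ± 0.07, adjusted p = 0.69, edgeR). Dync1i1, the neuronal intermediate chain, was low, at 4.49 and 4.36 CPM on day 1, 1.71 and 1.69 CPM on day 7, 2.63 and 2.77 CPM on day 10, and 3.61 and 2.58 CPM on day 14. All later libraries lay below day 1, with day 7 at a Log2FC of −1.01 ± 0.13, day 10 at −0.55 ± 0.13 and day 14 at −0.42 ± 0.13 (adjusted p = 2.6e-07, 0.00063 and 0.0065, limma). The day 14 call was lost without either day 1 library or day 14 replicate 2 (adjusted p = 0.027 to 0.15). Sorted libraries of Dync1i1 measured 0.938 to 2.76 CPM and overlapped (Log2FC 0.74 ± 0.30, adjusted p = 0.064, edgeR). Dync1li1 was not called in any comparison. Dync1li2 was lower in CD61high (Log2FC −0.37 ± 0.09, adjusted p = 0.0061), a call lost without CD61low replicate 2 or 3 or CD61high replicate 2 or 3 (adjusted p = 0.013 to 0.031) and with the replicate number as a block (adjusted p = 0.018). Of 15 dynactin subunits and dynein regulators, 3 rose and 4 fell at day 14, where all genes gave 32.6% and 36.0%, and 4 rose and 1 fell in CD61high, where all genes gave 19.4% and 16.0%. Dctn3 rose most (Log2FC 0.29) and Actr1a fell most (Log2FC −0.45) at day 14, and Dctn1, the p150 subunit that contacts dynein, rose most in CD61high (Log2FC 0.55) with Dctn4 falling (Log2FC −0.38).

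Of 16 adaptors that activate dynein, 12 were tested in the time course, where 2 rose and 4 fell at day 14 (all genes 32.6% and 36.0%), and 13 in the sort, where 1 rose and 3 fell (all genes 19.4% and 16.0%). At day 14 Hook2 rose most (Log2FC 0.85) and Trak2, which links mitochondria to motors, fell most (Log2FC −0.66). Hap1, the huntingtin-associated adaptor, measured 47.8, 50.1 and 47.1 CPM in CD61low and 11.2, 12.9 and 13.2 CPM in CD61high (Log2FC −1.96 ± 0.09, adjusted p = 2.9e-07, edgeR). Over the time course Hap1 was instead higher than on day 1, with a Log2FC of 0.88 on day 7, 1.85 on day 10 and 0.70 on day 14. Cracr2a, listed under the older symbol Efcab4b, rose in CD61high (Log2FC 1.26) from a level of 1.08 to 1.46 CPM.

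Kif26b had the largest change of any motor gene, in both experiments. It lies at chr1:178356690-178766765 (GRCm39, plus strand) and encodes a kinesin without ATPase activity that is known from kidney development and noncanonical Wnt signalling. Levels were 207 and 203 CPM on day 1, 11.1 and 12.7 CPM on day 7, 25.1 and 25.8 CPM on day 10, and 16.9 and 18.2 CPM on day 14. Each later library was far below day 1, and the mean on day 1 was 17.2 times that on day 7 and 11.7 times that on day 14 (Log2FC −3.47 ± 0.07 at day 14, adjusted p = 3.7e-25, limma). In the sort it measured 24.9, 21.3 and 29.6 CPM in CD61low and 8.57, 7.6 and 8.47 CPM in CD61high, without overlap (Log2FC −1.62 ± 0.14, adjusted p = 7.8e-06, edgeR). It was the only motor gene past 2-fold downward in the sort, where 4.37% of all genes were.

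Kif21b, a kinesin-4 that pauses and stabilises microtubule plus ends, had the largest rise of the motor genes at day 14 against day 1. It lies at chr1:136059098-136105763 (plus strand) and measured 55.2 and 55.3 CPM on day 1, 137.6 and 137.8 CPM on day 7, 105 and 99.4 CPM on day 10, and 219.8 and 208.5 CPM on day 14. Day 14 libraries were the highest of all and day 10 lay between days 1 and 7 (Log2FC 1.94 ± 0.04 at day 14, adjusted p = 9.2e-24, limma). Sorted libraries measured 207, 198 and 244 CPM in CD61low and 318, 257 and 275 CPM in CD61high (Log2FC 0.39 ± 0.10, adjusted p = 0.009, edgeR). That margin was thin, since the call was lost without CD61low replicate 1 or 2 or CD61high replicate 1 or 3 (adjusted p = 0.023 to 0.045). It was also lost with the replicate number as a block.

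Its relative Kif21a peaked earlier. It measured 29.6 and 27.8 CPM on day 1, 36.8 and 40.6 CPM on day 7, 79.1 and 83.8 CPM on day 10, and 50.6 and 46.2 CPM on day 14, so that day 10 stood above all other days (Log2FC 1.47 ± 0.06 at day 10 and 0.73 ± 0.06 at day 14, limma). In the sort Kif21a overlapped between groups, at 21.1, 20.5 and 28.5 CPM in CD61low and 32.0, 23.9 and 29.1 CPM in CD61high (Log2FC 0.28 ± 0.15, adjusted p = 0.14, edgeR). Kif21a and Kif21b thus ran in opposite directions from day 10 to day 14, with Log2FC of −0.74 ± 0.06 and 1.06 ± 0.04.

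Kif7 and Kif19a, kinesins of the cilium tip, rose with differentiation. Kif7, which restrains Hedgehog signalling, measured 15.6 and 15 CPM on day 1, 33.8 and 33.1 CPM on day 7, 31.6 and 35.6 CPM on day 10, and 28.7 and 31 CPM on day 14 (Log2FC 0.92 ± 0.07 at day 14, adjusted p = 5.2e-12, limma). Kif19a measured 3.87 and 3.95 CPM on day 1, 5.37 and 6.02 CPM on day 7, 10.1 and 9.12 CPM on day 10, and 9.27 and 8.58 CPM on day 14 (Log2FC 1.01 ± 0.11 at day 14, adjusted p = 2.8e-09). Day 1 libraries were the lowest for both genes. Sorted libraries of Kif19a measured 7.89, 8.16 and 9.86 CPM in CD61low and 12.4, 11.98 and 12.5 CPM in CD61high, and those of Kif7 measured 16.4, 15.01 and 18.2 CPM and 21.5, 18.8 and 22.6 CPM. In CD61high Kif19a was higher (Log2FC 0.51 ± 0.13, adjusted p = 0.0075, edgeR), a call lost in 5 of the 6 fits that left out 1 library (all but CD61low replicate 3, adjusted p = 0.015 to 0.034) and with the replicate number as a block. Kif7 missed the threshold (Log2FC 0.34 ± 0.11, adjusted p = 0.028). Kif2a, a microtubule depolymerase, fell at day 14 (Log2FC −0.43) and in CD61high (Log2FC −0.43), the latter call being lost without CD61low replicate 2 or CD61high replicate 3. Over the 8 other kinesins tested, 5 rose and 3 fell at day 14 (32.6% and 36.0% of all genes), with a median of 0.72, and 2 rose and 2 fell in CD61high (19.4% and 16.0%).

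**Figure D4:**
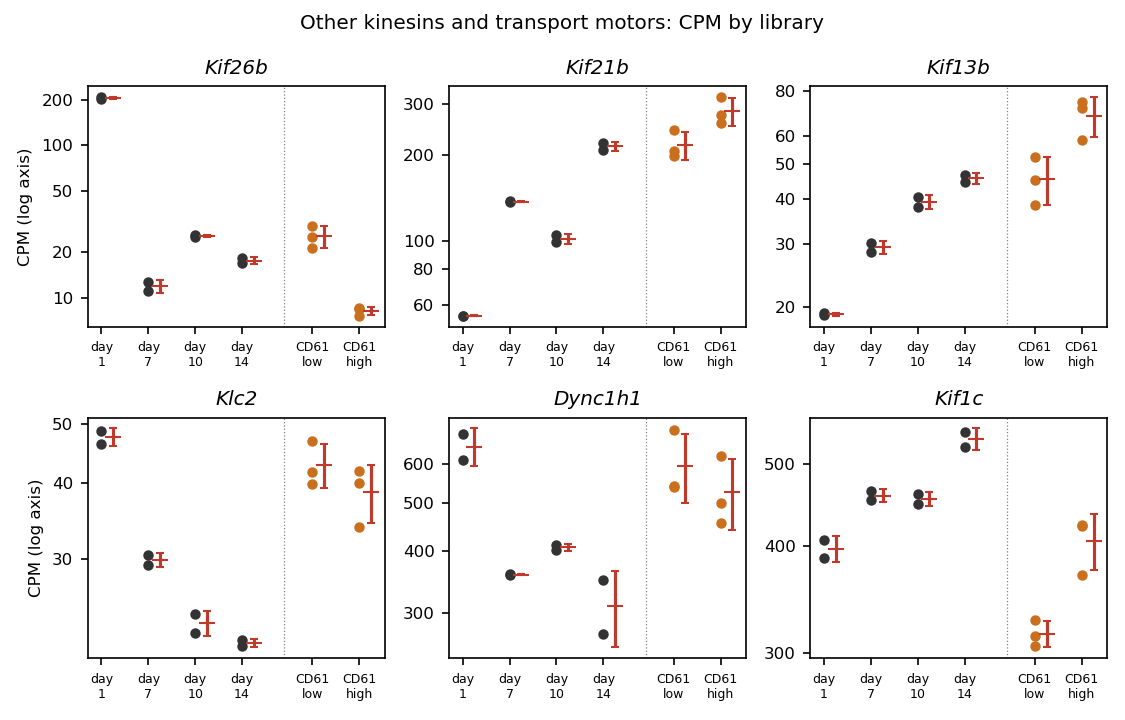
CPM (log axes, different for each gene) of Kif26b, Kif21b, Kif13b, Klc2, Dync1h1 and Kif1c by group. Dots are libraries and red bars the mean ± SD (n = 2 per day, n = 3 per sorted group), with the separately normalised sort to the right of the dotted line. Kif26b drops from over 200 CPM on day 1 to 11.1 and 12.7 CPM on day 7, and its CD61high libraries lie below all CD61low libraries.

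Of the dynein-2 subunits, Dync2li1, a light intermediate chain, measured 16.4 and 16.8 CPM on day 1, 22.3 and 22.6 CPM on day 7, 15.3 and 13.7 CPM on day 10, and 27.1 and 29.8 CPM on day 14. Day 14 was above all other days (Log2FC 0.74 ± 0.08, adjusted p = 2.3e-09, limma). In the sort it measured 9.09, 8.63 and 9.42 CPM in CD61low and 11.3, 13 and 13.4 CPM in CD61high (Log2FC 0.47 ± 0.12, adjusted p = 0.0087, edgeR). That call was lost when any library other than CD61high replicate 1 was left out (adjusted p = 0.017 to 0.043) and with the replicate number as a block. Dync2h1, the heavy chain, was lower at day 14 (Log2FC −0.29, not called without day 14 replicate 2) and overlapped between sorted groups (Log2FC −0.02).

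Of 7 dynein light chains tested in the time course, 4 were lower and 1 higher at day 14, where 36.0% and 32.6% of all genes were. Of the 4, Dynlt1b (Log2FC −0.62) and Dynlt1f (Log2FC −0.63) are near-identical copies whose counts are uncertain. Dynll1, an LC8 light chain, measured 143 and 139 CPM on day 1 and 112 and 122 CPM on day 14 (Log2FC −0.27 ± 0.05, adjusted p = 1.2e-05, limma). Dynll2, its near twin in protein sequence, measured 166 and 156 CPM on day 1 and 118 and 115 CPM on day 14 (Log2FC −0.46 ± 0.04, adjusted p = 1.9e-10). None of the 31-base words of Dynll2 transcripts occur in transcripts of other genes. In the sort neither was called, with Dynll1 at 154, 148.5 and 134 CPM in CD61low and 151.5, 190.0 and 189 CPM in CD61high (Log2FC 0.28 ± 0.10, adjusted p = 0.036, edgeR) and Dynll2 at 69.6, 70.8 and 66.6 CPM in CD61low and 54.2, 56.2 and 62.1 CPM in CD61high (Log2FC −0.26 ± 0.08, adjusted p = 0.016). Dynlt3, a Tctex light chain, was the member that rose at day 14 (Log2FC 0.47).

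The Dynlt1 genes are near-identical copies within one stretch of chromosome 17, and 73.2% to 93.5% of their 31-base words occur in other transcripts. Dynlt1a measured 15, 17.1 and 15.9 CPM in CD61low and 22.8, 22.3 and 25.1 CPM in CD61high (Log2FC 0.55 ± 0.10, adjusted p = 0.0012, edgeR), and Dynlt1f was higher as well (Log2FC 0.42), though not without CD61low replicate 2 or CD61high replicate 3, and was lower at day 10 (Log2FC −0.59) and day 14. In the time course Dynlt1a measured 2.70 to 4.72 CPM and was not called on any day. Dynlt1c was at 0.0627 to 0.175 CPM in the counted time course and at 6.63 to 9.14 CPM in the sorted files, where counts are shared out among copies by estimation. Values of single Dynlt1 genes are therefore uncertain in both experiments.

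**Figure D5:**
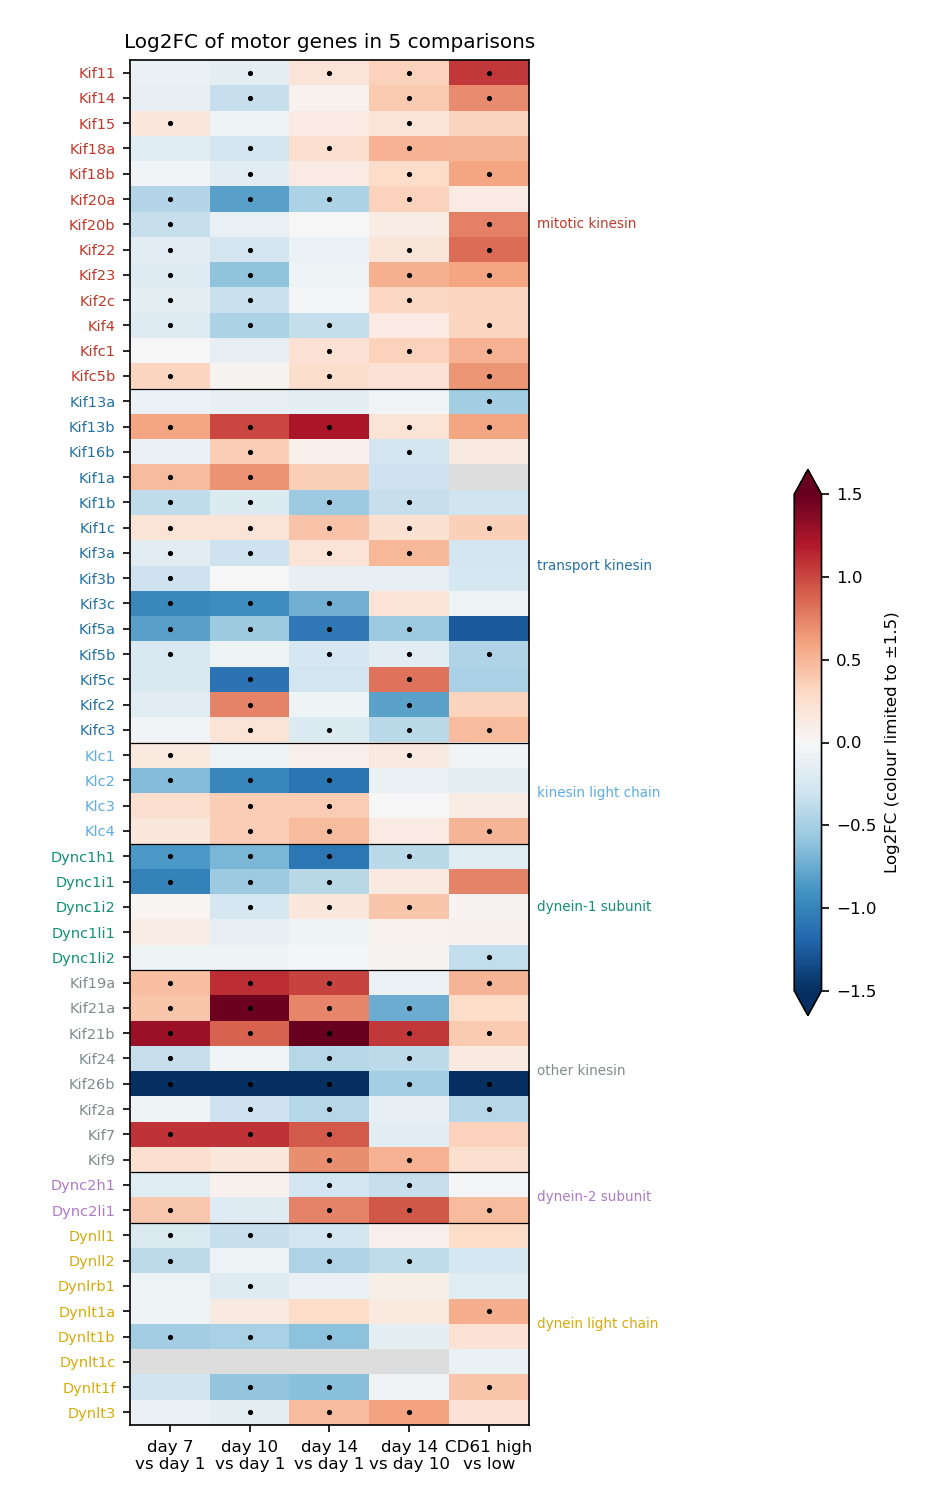
Log2FC (colour, limited to ±1.5) of the motor genes tested, in rows by role, for 4 time course comparisons and the sort. Black dots mark an adjusted p below 0.01 and grey cells genes not tested. The mitotic rows are red in the day 14 against day 10 and the CD61high columns, and Kif26b, at −3.47 in day 14 against day 1, is beyond the colour range.

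In all, 53 of 61 motor genes passed the filter in each experiment. Among those tested, 17 were higher and 18 lower at day 14, where 32.6% and 36.0% of all genes were, and 18 were higher and 5 lower in CD61high, where 19.4% and 16.0% were. With library size alone the sort gave 4 higher, all mitotic kinesins, and 16 lower, where all genes gave 9.27% and 39.9%. Without CD61low replicate 2 the counts in the sort were 10 and 2, and without CD61high replicate 3 they were 11 and 2, while 8 or 9 mitotic kinesins were called higher whichever library was left out. Kif2b had 0 of 250823570 reads over the time course, which allows up to 0.0120 CPM, and 0 of 114279629 counts in the sort, which allows up to 0.0263 CPM. Kif12, Kif26a, Dynlrb2, Kif6, Kif17 and Kif27 reached at most 1.56 CPM in any library and were not tested. Per length, in TPM, which also divide by transcript length, of the sorted cells, Dynlrb1 was the highest motor gene at 713 ± 50 TPM (SD, n = 3) in CD61low and 499 ± 21.6 TPM in CD61high. These TPM are not scaled between groups. In the sort Dynlrb1 was not called and its groups overlapped (Log2FC −0.18 ± 0.09, adjusted p = 0.12, edgeR). Dynll1 followed at 452 ± 20.2 and 463 ± 54.8 TPM. Kif1c (113 ± 6.84 TPM) and Dync1h1 (108 ± 10.5 TPM) did not differ beyond their spread in CD61low, and Kif11 stood at 41.9 TPM in CD61low and 69.9 TPM in CD61high.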

How the data were processed

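PolyA RNA of 14 Ocy454 libraries was sequenced. For the time course the authors, per the methods and the submitters' processing notes, aligned reads with STAR, counted them with HTSeq and deposited CPM per gene; every CPM value was a whole number of reads within 0.01. For sorted cells they deposited Salmon estimated counts and TPM per transcript (GRCm39). Estimated counts were summed by gene through GENCODE M39 (115556 of 116747 transcripts matched) and rounded. Members and gene lists were chosen with earlier results of these data known. The time course was fitted with limma 3.58.1 (R 4.3.3, trend) on log2(CPM + 1) for 12725 genes above 1 CPM in at least 1 library, with all days in one fit, so that Log2FC of low genes is understated. The sort was fitted with edgeR 4.0.16 (quasi-likelihood, TMM) on 12077 genes whose normalized count was 5 or more in all 6 libraries, and CPM printed for it are TMM-scaled. The p-values were adjusted by Benjamini-Hochberg over all genes, and a call needed less than 0.01. The fits were also run on simulated counts with a fixed spread. Those counts lacked the length trends and normalisation differences of the sorted libraries, so that run does not cover them. TPM were not TMM-scaled and were used for levels between genes only. Members given values by library (ranges in places) were the 10 called with the largest absolute Log2FC at day 14 and in the sort, plus Kif11, Kif23, Kif20a, Kif5b, Kif3a, Klc1, Dync1h1, Dync1i2, Dynll1 and Dynll2. Kif1c, Kif13a, Kif3b, Kif3c and Dync1i1 and, outside the motors, Hap1 were given values after these were seen. Other motor genes and cell type markers were also named with their values known, and other genes mostly as the extremes of their lists. Sequencing floors are 3 reads and cover counting error only. Per the study's methods, the time course replicates were biological duplicates and the sort replicates 3 separately collected groups of cells of the same line. Replicates of each group differed by more than counting noise.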

Additional observations from a re-analysis of the deposited data

How the results depend on the processing

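Over the tested motor genes and the alternatives run, no sign change had a call on either side except that of Dync1i2 in the sort, which turned to −0.27 when libraries were scaled by size alone (adjusted p = 0.0094, edgeR). That scaling shifts the median of all genes by −0.30, so genes near 0 change sign with it. Values of single motor genes stayed on their side of the threshold 3375 times, lost it 229 times and gained it 73 times. The causes of the other moves were not tested. In the sort, library size alone gave 4 motor genes higher and 16 lower, 4 mitotic kinesins higher with a median Log2FC of 0.29, and 0 transport motors higher and 12 lower with a median of −0.36. With the trend over gene length removed, an alternative added after seeing the data, 10 motor genes and 6 transport motors were lower. Shares of all genes called were counted only in the main fits and with library size alone. Counts in the other alternatives therefore have no background beside them. In the time course, omitting the filter gave 0 mitotic kinesins higher and 3 lower at day 7, and limma without a trend gave 1 higher and 3 lower there and 4 transport motors lower from day 10 to day 14. Quantile normalization moved the mitotic median to −0.11 at day 7, 0.08 at day 14 and 0.35 from day 10 to day 14. The count test by edgeR on recovered reads with TMM moved it to −0.10, −0.30, 0.09 and 0.38 at day 7, day 10, day 14 and from day 10 to day 14, and the transport median to −0.06 at day 7 and 0.09 from day 10 to day 14. Without the length trend the mitotic median was −0.12 at day 7 and −0.30 at day 10, and the transport median −0.05 and −0.14. DESeq2 in the sort left every count of calls within 1.5 times.

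Leaving out each library in turn gave, at day 7, 7 to 9 motor genes higher, 1 mitotic kinesin higher and 3 to 5 lower with a median of −0.16 to −0.11, and 2 to 3 transport motors higher with a median of −0.16 to −0.06. At day 10 the mitotic median was −0.29 to −0.23. At day 14, 1 to 4 mitotic kinesins were higher with a median of −0.02 to 0.13, and 3 to 6 transport motors were higher. From day 10 to day 14 the transport median was −0.08 to 0.03 and 5 to 6 were lower. In the sort, 10 to 17 motor genes were higher and 2 to 6 lower, and 1 to 4 transport motors were higher and 1 to 4 lower, with the mitotic median at 0.50 to 0.63.

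The methods describe 3 groups of cells collected for the sort, but no label ties replicate numbers to them, and deviations of sorted libraries with the same number correlated at −0.321, 0.22 and −0.061, so the libraries were not treated as paired. With a replicate block the sort had 14 motor genes higher and 3 lower, 8 mitotic kinesins higher and 1 transport motor lower, against 18, 5, 9 and 3 without it, and Dync2li1, Kif19a, Kif21b, Kif4, Kif5b and Dync1li2 were not called. In the time course the block moved 2 calls, both at day 7, with Dync2h1 gained (adjusted p = 0.0097) and Kif1a lost (adjusted p = 0.01).

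With 2 or 3 libraries a group, the smallest Log2FC called among motor genes was −0.13 in the time course (Dynlt3 at day 10, lost when any library of those days was left out) and 0.32 in the sort (Kif4), while larger differences such as −1.26 for Kif5a in the sort were not called. Genes below 1 CPM rest on few reads.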
